A study of Homo sapiens with 4 samples.

Results

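The MAP7 family comprises MAP7, MAP7D1, MAP7D2 and MAP7D3, which encode microtubule-associated proteins. It was read on Affymetrix arrays by 8 probe sets, all those that the platform annotation pairs with these symbols alone, among 54675 probe sets on the array. The 4 genes stood among 19775 genes with a value. MAP7 and MAP7D3 had 3 probe sets each, and MAP7D1 and MAP7D2 had 1 each. MAP7D2 was chosen by its measured siTTF-1 difference, at least 2-fold lower in both lines, and the values of that comparison are given for the whole family as a description without a test. Its paralogs were taken by name, to ask whether they followed MAP7D2.

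NCI-H209 and Lu139 are human lines established from small cell lung cancer, a neuroendocrine tumour. Cells of each line were electroporated with a control siRNA, siNTC, or with an siRNA against TTF-1, siTTF-1. TTF-1, the product of NKX2-1, is a homeodomain protein that controls gene expression in lung and thyroid. Each of the 4 combinations was measured on 1 array, so values within a line have no replicate, and the siRNA effect was seen in 2 lines with nothing beyond them. The labels give no time after electroporation and do not say whether the arrays came from separate cultures.

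Proteins of this family bind along the microtubule wall through a coiled coil near the N terminus. A region nearer the C terminus binds the heavy chain of kinesin-1, the motor that carries organelles and vesicles towards microtubule plus ends, and helps recruit it to microtubules. MAP7, also called ensconsin or E-MAP-115, is best known from epithelial cells, MAP7D1 is expressed in many cell types, and MAP7D2 is best known from neurons, where it lies in the proximal axon. The paralogs overlap in function, and the loss of several is generally needed to disturb kinesin-1 transport strongly.

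TTF-1 binds DNA sites built around the core CAAG. The RefSeq promoter windows of build GRCh38.p14 held all 4 members, with 8 transcription starts in all, and the 250 bases before each start were searched for CAAG on both strands. The windows of MAP7D2, which was lower after siTTF-1, and of MAP7D1, a paralog well above the expression limit in both lines, are shown to let them be compared. Each is written 5′ to 3′ on the strand of the gene, and capitals mark CAAG or its reverse complement. The window of MAP7D2 lies at chrX:20116908-20117157 on the minus strand, before the more upstream of its 2 listed starts. The window of MAP7D1 lies at chr1:36155910-36156159 on the plus strand.
MAP7D2: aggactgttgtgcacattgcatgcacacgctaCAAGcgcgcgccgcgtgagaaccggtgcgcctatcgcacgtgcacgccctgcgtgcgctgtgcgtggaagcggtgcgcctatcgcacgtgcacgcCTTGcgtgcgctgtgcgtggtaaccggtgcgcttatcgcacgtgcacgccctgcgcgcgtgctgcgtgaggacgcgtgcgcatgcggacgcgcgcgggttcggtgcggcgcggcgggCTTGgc
MAP7D1: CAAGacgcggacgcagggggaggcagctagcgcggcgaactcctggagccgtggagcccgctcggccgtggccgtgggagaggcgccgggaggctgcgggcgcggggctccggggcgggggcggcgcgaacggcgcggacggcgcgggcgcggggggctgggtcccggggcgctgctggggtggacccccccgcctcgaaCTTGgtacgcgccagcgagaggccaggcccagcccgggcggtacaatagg

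The core is common and did not set MAP7D2 apart. It occurred in all 8 member windows and in 80.9% of 35116 promoter windows of that length. The MAP7D2 window held it 3 times, beginning 218, 123 and 6 bases before the start, and the MAP7D1 window 2 times, at 250 and 50 bases. The longer string CTCAAG, which contains the core, was present in 10.4% of all windows, searched on both strands. Among the members it occurred before the more downstream start of MAP7D2, 115 bases from that start, and 2 times before the most downstream of 4 starts of MAP7. The MAP7D2 match lies at chrX:20116738-20116767 on the minus strand, with CTCAAG in capitals.
MAP7D2 match: ccaactaccggcCTCAAGgtattatcccca

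The string CAAGTG, which also contains the core and was searched on both strands, occurred in 9.5% of all windows and in 0 of the 8 member windows. These matches are descriptions of the letters, and binding of TTF-1 was not measured. The upstream MAP7D2 window was 70.0% G and C, against a median of 58.0% over all windows. It also held an exact repeat of 26 bases, shown because it was the longest among the member windows.
MAP7D2 repeat: cggtgcgcctatcgcacgtgcacgcc
The repeat was present 2 times without overlap, and 0.937% of all windows held an exact repeat at least as long. The longest exact repeats in the windows of the paralogs measured 12 bases or fewer.

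The targeted transcript was lower in both lines. NKX2-1 kept 40.7% of its control intensity in NCI-H209 on 211024_s_at, and 59.1% in Lu139. On 210673_x_at it kept 64.6% and 55.3%. All 7 measured neuroendocrine markers and 4 epithelial markers were above the expression limit, an intensity of 37.0, on every array, with intensities from 77.2 to 13124. Of the markers of other cell types, PTPRC of leukocytes, CDH5 of endothelium and COL1A2, COL3A1 and LUM of fibroblasts were below the limit on all 4 arrays. The other measured markers of those lists, COL1A1, DCN, CD3E, CD14, PECAM1 and VWF, were between 33.4 and 362. They were above the limit on every array, apart from DCN on the siNTC array of Lu139. The arrays of a line shared exactly equal intensities at 2416 (NCI-H209) and 2206 (Lu139) probe sets, against 0 between lines, and differences between lines are therefore given with a second scaling. Changes are differences of log2(intensity + 18.7), which understate the change of dim probe sets.

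MAP7D2, the member best known from neurons, had a lower level with siTTF-1 than with siNTC in each line. On 228262_at, its only probe set, it read 626 in NCI-H209 with siNTC and 138 with siTTF-1. In Lu139 it was 619 with siNTC and 276 with siTTF-1. The control arrays of the lines thus read nearly the same level as deposited, and both siTTF-1 arrays lay below both control arrays. It kept 22.0% of its control level in NCI-H209 and 44.5% of that in Lu139, log2 differences of -2.04 and -1.12, with a mean of -1.58 (SD 0.66, n = 2 lines). Among the 32746 probe sets above the expression limit, its difference ranked 4 from the lowest in NCI-H209 and 23 from the lowest in Lu139. At 1.5-fold, 0.345% of these probe sets were lower in both lines and 0.0489% higher. MAP7D2 was the 1 member probe set among the lower ones. This count follows from how the family was chosen. The arrays read RNA of many cells together, so fewer cells with the transcript and less of it per cell cannot be told apart.

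**Figure D1:**
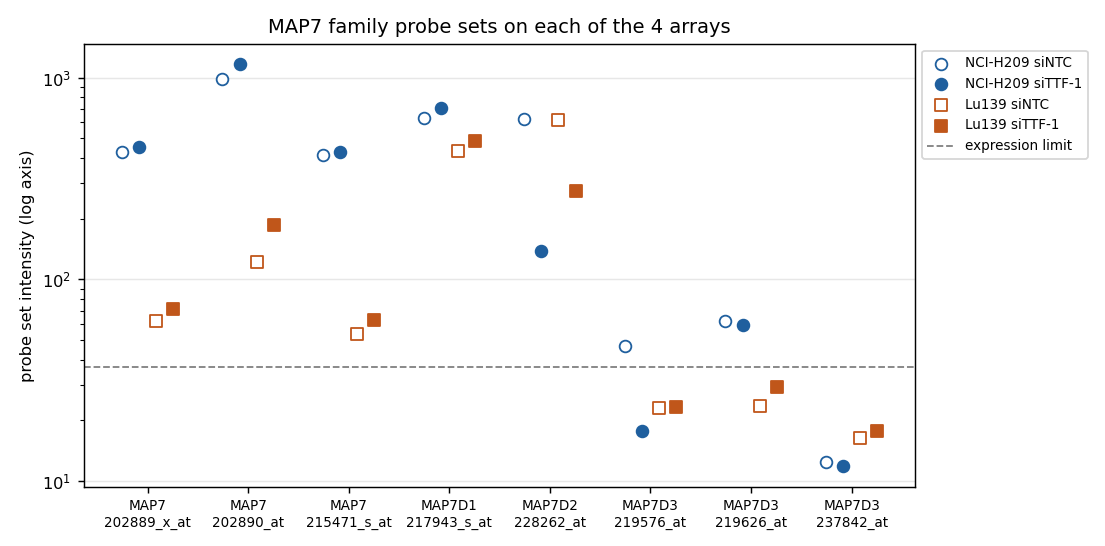
Probe set intensity (log axis) of the 8 MAP7 family probe sets on each of the 4 arrays, with 1 point per array, circles for NCI-H209, squares for Lu139, open for siNTC and filled for siTTF-1. MAP7D2 goes from 626 to 138 and from 619 to 276, the MAP7 probe sets separate by line, and the MAP7D3 probe sets lie near or below the dashed expression limit of 37.0.

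MAP7, the epithelial member, was not lower on any of its 3 probe sets in either line. On the brightest, 202890_at, the intensity was 990 with siNTC and 1167 with siTTF-1 in NCI-H209. In Lu139 it was 122 with siNTC and 186 with siTTF-1. These are log2 differences of 0.23 and 0.54 (mean 0.39, SD 0.22, n = 2 lines), opposite in direction to MAP7D2. The value in Lu139 was just under 1.5-fold on this scale and ranked 84 from the highest of 32746 probe sets. With quantile normalization over the 4 arrays it was 0.62 and passed 1.5-fold.

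The other MAP7 probe sets gave smaller differences. On 202889_x_at the siNTC and siTTF-1 arrays read 426 and 454 in NCI-H209, and 62.5 and 71.2 for Lu139, log2 differences of 0.09 and 0.15. On 215471_s_at they read 411 and 428 in NCI-H209, and 53.7 and 62.8 for Lu139, differences of 0.05 and 0.17. The 3 probe sets thus had the same direction but not the same size, and as their mean the Lu139 difference was 0.28. MAP7 has 4 listed starts, and which transcripts each probe set reads was not analysed here.

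MAP7D1, the broadly expressed member, was slightly higher in both lines. Its intensity on 217943_s_at was 632 with siNTC and 705 with siTTF-1 in NCI-H209. In Lu139 it was 435 with siNTC and 487 with siTTF-1. The log2 differences were 0.15 and 0.16 (mean 0.16, SD 0.0034, n = 2 lines), nearly equal between lines. They were ordinary in size, above 77.9% and 82.0% of the probe sets in the respective line. Of all probe sets above the limit, 35.1% were higher and 27.6% lower in both lines by any amount.

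MAP7D3, another member that binds microtubules and kinesin-1, was dim, and its probe sets differed in the size of the difference. On 219626_at the siNTC and siTTF-1 arrays read 62.3 and 59.1 in NCI-H209, and 23.6 and 29.3 for Lu139, log2 differences of -0.06 and 0.18. Both Lu139 values were under the expression limit, so this probe set passed the limit through NCI-H209. On 219576_at they read 46.5 and 17.7 in NCI-H209, and 23.1 and 23.4 for Lu139, differences of -0.84 and 0.01. Only the control array of NCI-H209 was above the limit there, and with a doubled pseudocount the difference in that line was -0.61. On 237842_at all 4 intensities were between 11.8 and 17.8, below the limit. All 3 probe sets were thus lower in NCI-H209, past 1.5-fold on 1 of 3, and higher in Lu139 by less than that. The 0.01 on 219576_at turned to -0.0051 with quantile normalization over the 4 arrays.

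Of the 8 member probe sets, 6 passed the expression limit over the 4 arrays, 5 of them of the paralogs. None of those 5 was 1.5-fold lower or higher in either line. In all probe sets above the limit, 3.48% were 1.5-fold lower and 1.12% higher in NCI-H209, and 1.38% lower and 0.159% higher in Lu139. Because only a small share of probe sets passed 1.5-fold, the absence of the paralogs from those calls is what most genes showed. The spread between separate cultures is unknown, and 1 array per group cannot show that the paralogs did not differ.

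**Figure D2:**
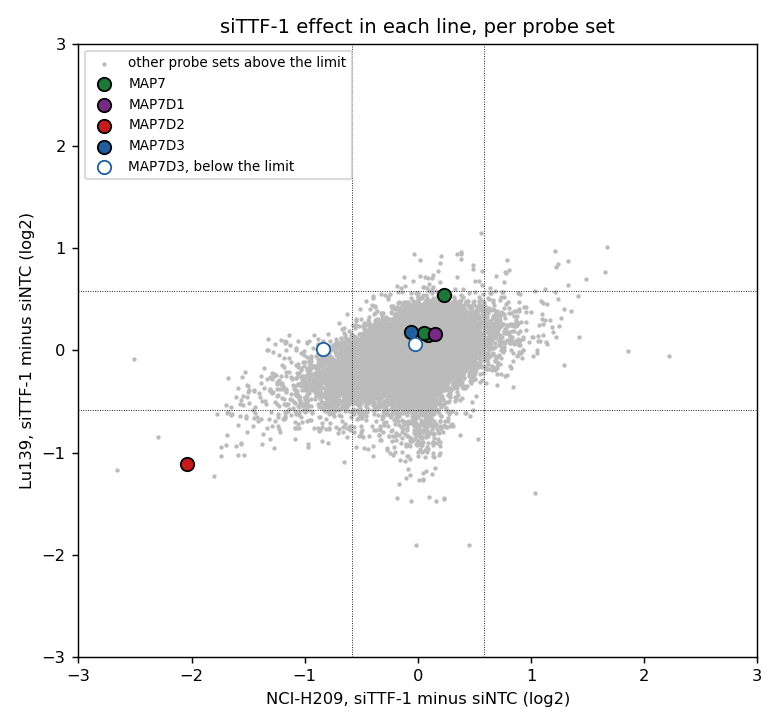
Log2 difference between siTTF-1 and siNTC in NCI-H209 (x axis) and Lu139 (y axis) for every probe set above the expression limit (grey) and the MAP7 family (coloured, open where below the limit), with dotted lines at 1.5-fold. MAP7D2 lies at -2.04 and -1.12, away from its paralogs, which lie near 0 apart from MAP7 202890_at in Lu139 at 0.54 and MAP7D3 219576_at in NCI-H209 at -0.84.

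The lines differed in the level of MAP7, and line differences did not enter the choice of the family. MAP7 was far lower in Lu139. On the control arrays 202890_at read 990 in NCI-H209 and 122 in Lu139, an 8.09-fold ratio of intensities. The log2 difference over both siRNAs, Lu139 minus NCI-H209, was -2.69 on 202890_at (limma 95% interval -2.97 to -2.40, adjusted p = 3.4e-06). It was -2.42 on 202889_x_at (-2.67 to -2.17, limma adjusted p = 2.9e-06) and -2.51 on 215471_s_at (-2.76 to -2.26, limma adjusted p = 2.6e-06). All NCI-H209 arrays lay above all Lu139 arrays on each of the 3 probe sets. In the order of differences from the lowest, 202890_at was at 573 of 32746.

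These p-values need the background beside them. Of all probe sets tested, 48.8% were lower and 19.2% higher in Lu139 at a limma adjusted p under 0.05, with a median log2 difference of -0.25, so that a call alone says little. With quantile normalization over the 4 arrays the split turned to 31.3% lower and 35.8% higher, with a median of 0.05. The MAP7 differences were between -2.84 and -2.09 over all alternatives, with a limma adjusted p of at most 1.9e-04 in each that had a test. These tests use the siNTC and siTTF-1 arrays of a line as its replicates. Their 1 residual degree of freedom is set by how far the siRNA effect differed between the lines. A further 5.95 prior degrees of freedom come from all probe sets. The spread between separate cultures of a line was not measured, and the variation used may be technical alone.

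Among the smaller line differences, that of MAP7D1 depended on the scaling, and that of MAP7D3 was read near the expression limit. MAP7D1 was lower in Lu139 by a log2 difference of -0.52 (limma 95% interval -0.77 to -0.27, adjusted p = 0.0035). With quantile normalization over the 4 arrays this became -0.06 (limma adjusted p = 0.63), so that the call was lost. MAP7D3 on 219626_at was lower in Lu139, with a log2 difference of -0.82 (-1.05 to -0.58, limma adjusted p = 2.6e-04). Both Lu139 arrays were below the expression limit, and the probe set passed it only through NCI-H209, where it was higher. Its call is therefore given as a description and not as support for a line difference. Over the alternatives with a test the limma adjusted p was from 1.4e-04 to 0.0012, the latter with no expression limit.

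MAP7D2 had no settled line difference. Over both siRNAs it was 0.45 higher in Lu139 on the log2 scale (limma 95% interval -0.04 to 0.94, adjusted p = 0.091). The difference was -0.02 on the control arrays and 0.91 on the siTTF-1 arrays, so the average mixes equal control levels with unequal levels after silencing. With quantile normalization over the 4 arrays the value over both siRNAs was 0.89 (limma adjusted p = 0.0028) and that on the control arrays alone 0.46. Of the 6 member probe sets above the limit, 5 were called lower in Lu139 and 0 higher. The shares over all probe sets tested were 48.8% and 19.2%. Of those 5, 3 are of MAP7, and that of MAP7D3 passed the limit only through NCI-H209. With quantile normalization over the 4 arrays, MAP7D1 lost its call and MAP7D2 was called higher in Lu139.

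**Figure D3:**
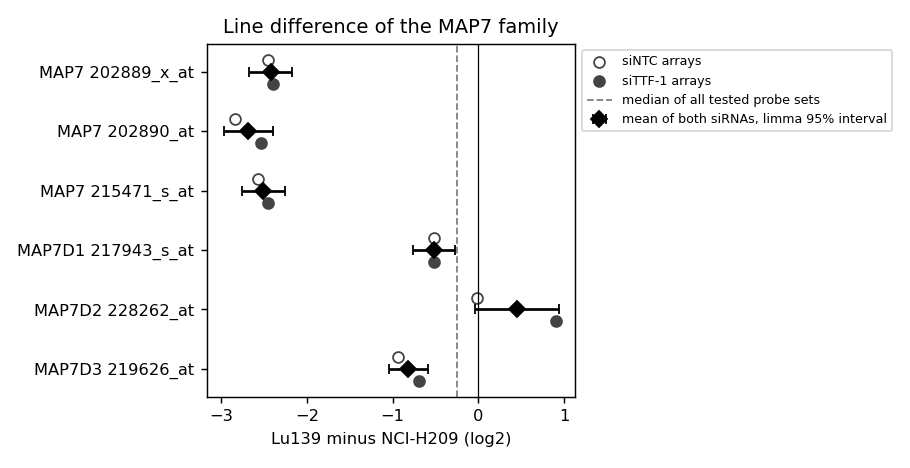
Log2 difference between Lu139 and NCI-H209 for the 6 member probe sets above the expression limit, as the mean over both siRNAs with the limma 95% interval (diamonds) and on the siNTC (open) and siTTF-1 (filled) arrays alone. The MAP7 probe sets lie between -2.69 and -2.42, far from the dashed median of all probe sets at -0.25, while MAP7D2 lies at -0.02 on the control arrays and 0.91 on the siTTF-1 arrays.

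The position of MAP7D2 on the X chromosome was used to see whether genes beside it moved too. In the RefSeq order, the 3 nearest genes with a value above the limit on each side were PDHA1, SH3KBP1, BCLAF3, EIF1AX, RPS6KA3 and CNKSR2. SH3KBP1, an endocytic adaptor gene, was the lowest of them, with log2 differences of -0.66 in NCI-H209 and -0.15 in Lu139. BCLAF3, the nearest gene before MAP7D2, had -0.23 and -0.16, and EIF1AX, a translation initiation factor gene on its other side, had -0.42 and 0.24. PDHA1, a subunit gene of pyruvate dehydrogenase, had -0.05 and 0.15. The kinase gene RPS6KA3 had 0.20 and -0.06, and CNKSR2, a scaffold gene of neurons, had 0.10 and 0.21. None of the 6 was 1.5-fold lower in both lines, against 0.344% of all genes tested, so this is what most genes showed. SH3KBP1 passed 1.5-fold in NCI-H209 alone. The medians of the 6 were -0.14 and 0.04.

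The neighbours of the paralogs gave similar small values. Over the 6 nearest genes of each, log2 differences were between -0.47 and 0.21 around MAP7, between -0.35 and 0.35 around MAP7D1 and between -0.32 and 0.43 around MAP7D3. None of them passed 1.5-fold in both lines, against 0.344% of all genes tested lower and 0.0481% higher.

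**Figure D4:**
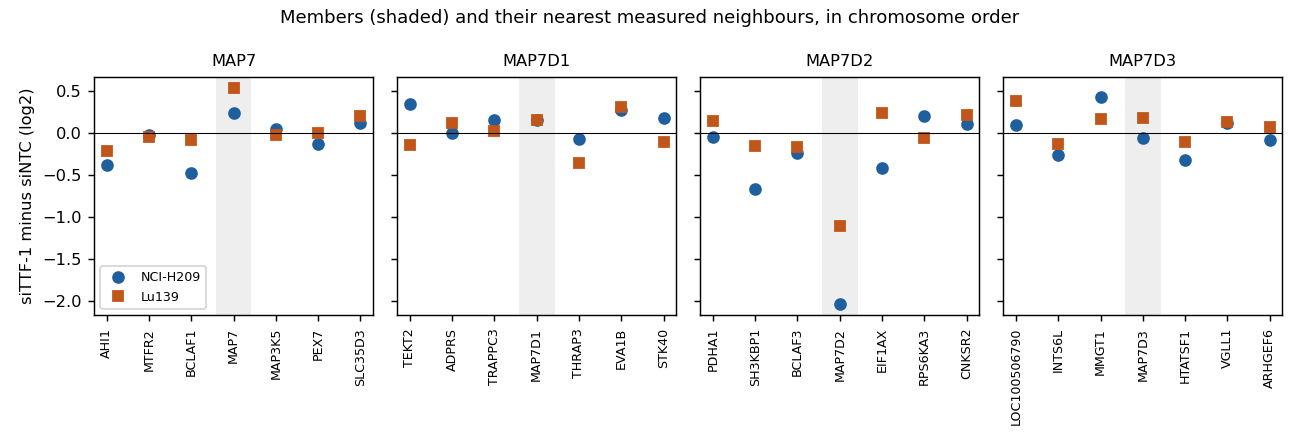
Log2 difference between siTTF-1 and siNTC for each member (shaded, its brightest probe set) and the 3 nearest measured genes on each side in chromosome order, circles for NCI-H209 and squares for Lu139. MAP7D2 is at -2.04 and -1.12, while its 6 neighbours lie between -0.66 and 0.24.

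The partners of the family were described through 8 lists of microtubule genes, each gene read by its brightest probe set. Of 100 listed genes, 93 were above the expression limit. At a limma adjusted p under 0.05, 0 were lower and 0 higher after siTTF-1, as for all 14547 genes tested (0% and 0%), and 16 were lower and 4 higher in limma at p under 0.05 without adjustment. Over all genes those unadjusted shares were 9.25% lower and 7.23% higher. At 1.5-fold in both lines, 2 of the 93 were lower and 1 higher, against 0.344% and 0.0481% of all genes. Because the lists were chosen with earlier results of these data known, these counts are a description and do not show an excess. The median log2 difference over the 93 was -0.05 in NCI-H209 and -0.03 in Lu139, against 0.01 and 0.03 over all genes tested.

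Kinesin-1, the motor that the MAP7 family recruits, differed little between the siRNAs. All 7 genes of its heavy and light chains were measured, and none passed 1.5-fold in either line. Of all genes tested, only 3.49% were 1.5-fold lower in NCI-H209 and 0.887% in Lu139, so this is what most genes showed. The list medians in NCI-H209 and Lu139 were 0.11 and 0.00. KIF5B, the ubiquitous heavy chain, had log2 differences of 0.07 and 0.03, and KIF5C, a neuronal heavy chain, had 0.03 and 0.09. The highest mean difference was that of the light chain KLC3 (0.17 and 0.29, limma adjusted p = 0.32), whose mean of 0.23 became 0.12 with its 3 probe sets averaged. The lowest was that of the light chain KLC2 (-0.03 and 0.00, limma adjusted p = 0.95), near 0 and of the other sign under both quantile normalizations.

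Among the 10 genes of kinesin-1 cargo adaptors, SYBU stood out. It encodes syntabulin, which links kinesin-1 to syntaxin-bearing vesicles and mitochondria in axons. Its intensity was 478 with siNTC and 839 with siTTF-1 in NCI-H209. In Lu139 it was 195 with siNTC and 375 with siTTF-1. It was thus higher on the siTTF-1 array in each line, by log2 differences of 0.79 and 0.89 (mean 0.84, limma 95% interval 0.59 to 1.08, adjusted p = 0.071). It was the 1 list gene 1.5-fold higher in both lines, and the list genes held no smaller adjusted p. Over all genes, limma called 49 lower and 17 higher with quantile normalization over the 4 arrays, and 33 and 8 with that within each line. SYBU was among these calls (limma adjusted p = 0.025 and 0.034) and was also called with an expression limit at the 60th percentile (0.038). Its adjusted p was larger than 0.071 with a doubled pseudocount (0.111), with probe sets averaged per gene (0.169), with no expression limit (0.181) and with no line term (1). At the low end, TRAK2, an adaptor between kinesin-1 and mitochondria, had -0.45 and -0.18 (limma adjusted p = 0.25). The medians of this list were 0.03 and 0.13.

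MAP9 had the lowest mean among the 19 genes of other proteins that bind along microtubules. It encodes an aster-associated protein of the mitotic spindle. Its intensity was 684 with siNTC and 214 with siTTF-1 in NCI-H209. In Lu139 it was 265 with siNTC and 152 with siTTF-1. The log2 differences were -1.59 and -0.73 (mean -1.16, SD 0.61, limma adjusted p = 0.105), and all 4 of its probe sets were lower in both lines. With quantile normalization over the 4 arrays MAP9 was 1 of 49 genes called lower (limma adjusted p = 0.046), and over all alternatives the adjusted p ran from there to 1. In NCI-H209, 4 genes of this list were 1.5-fold lower, against 3.49% of all genes, and in Lu139 MAP9 alone, against 0.887%. The other 3, named after their values were seen, were MAP1B (-1.11 and -0.34), MAP6D1 (-0.90 and -0.36) and MAP2 (-0.62 and -0.37). Of the 3 probe sets of MAP6D1, 3 were lower in NCI-H209 and 1 in Lu139. At the high end DCLK1, a doublecortin-like kinase that binds microtubules, had 0.45 and 0.30 (limma adjusted p = 0.15). The medians of this list were -0.13 and 0.01.

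VASH2, among 14 measured tubulin modifying enzymes, was the list gene 1.5-fold lower in both lines beside MAP9. It encodes a vasohibin, which removes the C-terminal tyrosine of alpha-tubulin. Its intensity was 198 with siNTC and 57.0 with siTTF-1 in NCI-H209. In Lu139 it was 424 with siNTC and 266 with siTTF-1. The log2 differences were -1.51 and -0.64 (mean -1.08, SD 0.62, limma adjusted p = 0.11). Its 3 probe sets disagreed, with 2 lower and 1 higher in each line, and as their average the mean was -0.61. Its binding partner SVBP, which vasohibins need for activity, had -0.23 and -0.22. At the high end TTLL4, a glutamylase of tubulin, had 0.27 and 0.11. The medians of the list were 0.00 and -0.05.

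The remaining lists held no gene past 1.5-fold in both lines, against 0.344% of all genes lower and 0.0481% higher, which is what most genes showed. Of 12 plus-end tracking proteins, the crosslinker of microtubules and actin MACF1 had the lowest mean (-0.49 and -0.45, limma adjusted p = 0.11), which went from -0.47 to -0.27 with its 8 probe sets averaged, and SLAIN1 the highest (0.28 and 0.20), with list medians of -0.05 and 0.00. Of 9 measured destabilisers and severing enzymes, STMN1, which encodes the tubulin-sequestering protein stathmin, had -0.52 and -0.24, and STMN3 had 0.41 and 0.05. Of the 2 probe sets of STMN1, 1 was lower and 1 higher in each line, and with both averaged its mean went from -0.38 to -0.13. SPAST, a severing enzyme gene, was the 1 gene of that list 1.5-fold lower in NCI-H209, against 3.49% of all genes. It had -0.60 there and -0.04 in Lu139, and was named after its values were seen. The medians were -0.05 and 0.04. Of 9 kinases acting on MAPs, MARK1, which phosphorylates MAPs and releases them from microtubules, had -0.53 and -0.10, and GSK3A had 0.20 and 0.13, with medians of -0.15 and -0.10. With probe sets averaged the mean of MARK1 went from -0.32 to -0.17 and that of GSK3A from 0.16 to 0.085. Of 13 measured tubulins, TUBB6 had -0.62 and -0.21 and TUBA4A had 0.12 and 0.17, with medians of -0.09 and -0.08. Probe sets of tubulin genes can cross-hybridise.

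**Figure D5:**
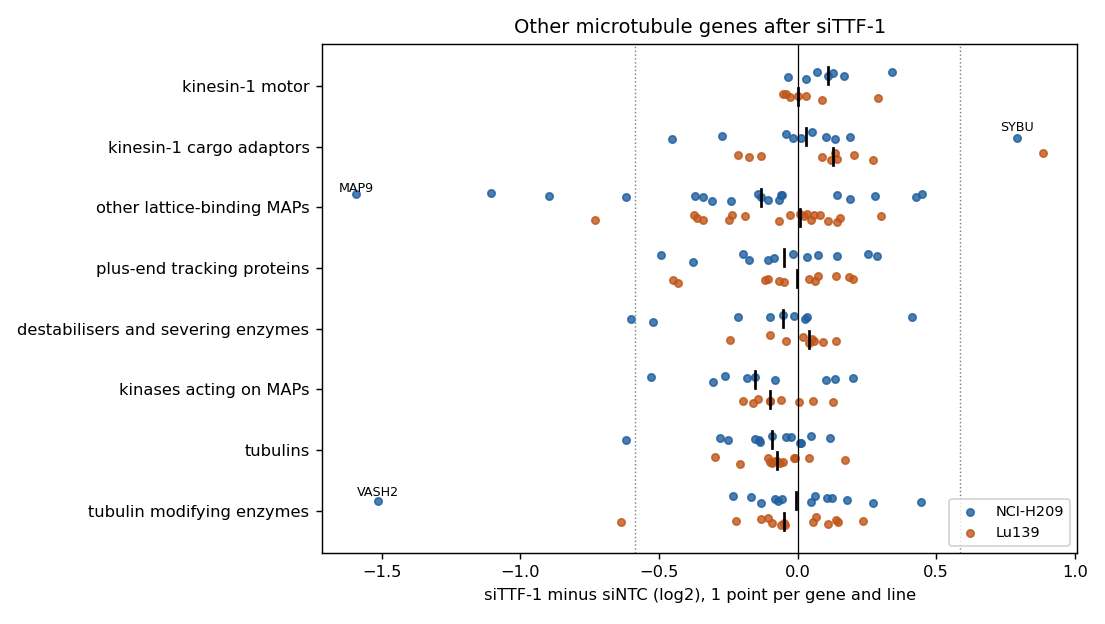
Log2 difference between siTTF-1 and siNTC for the 93 genes of 8 microtubule lists, 1 point per gene and line (blue NCI-H209, orange Lu139), with black bars at list medians and dotted lines at 1.5-fold. SYBU lies above 1.5-fold in both lines at 0.79 and 0.89, and MAP9 and VASH2 lie below it at -1.59 and -0.73 and at -1.51 and -0.64.

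The genes with the pattern most like that of MAP7D2 over the 4 arrays were found by the root mean square difference of log2 values centred on each gene's mean. The 5 nearest were SAMHD1 (0.21), TRIM24 (0.24), DSE (0.26), ZCRB1 (0.26) and CCP110 (0.26). Their log2 differences after siTTF-1 were between -1.56 and -1.38 in NCI-H209 and between -1.02 and -0.66 in Lu139. These lower values follow from the choice by likeness to MAP7D2 and are no separate result. Each gene was read by its brightest probe set. All 6 probe sets of SAMHD1 and all 2 of ZCRB1 were lower in each line. For TRIM24 3 of 4 were lower in each line, and for CCP110 1 of 2. For DSE 2 of 4 were lower in NCI-H209 and 1 of 4 in Lu139. On the same measure the paralogs were far from MAP7D2, at 1.02 for MAP7D1, 1.05 for MAP7D3 and 1.86 for MAP7. The distance of MAP7 includes its line difference. With 4 arrays, this likeness describes only these samples.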

How the data were processed

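Probe set intensities on a linear scale were taken as deposited by the authors, 1 column per array. The tool, per the submitters' processing notes, was Affymetrix Expression Console. Its version, summarisation and normalization were not stated in any label or header used. Each of 41091 probe sets was paired with 1 symbol in the platform annotation, updated through RefSeq gene identifiers for 41037. The 62 array controls were left out. Values were log2(intensity + 18.7), where the pseudocount is the 25th percentile of the whole table. Probe sets were tested where their mean exceeded 5.80, the 40th percentile. The line comparison was fitted with limma 3.58.1 (R 4.3.3) on 32746 probe sets, with terms for line and siRNA, a variance trend, 1 residual and 5.95 prior degrees of freedom and Benjamini-Hochberg adjustment. The siRNA effect on lists was fitted likewise over 14547 genes, each by its brightest probe set. All tests were two-sided. On simulated arrays of the line comparison with 32746 probe sets, 90.0% of differences of 0.5 on the log2 scale and 100% of those of 1 or more were recovered, with 67 false calls. The spread between separate cultures was not measured, so these shares do not give the power of the real comparison against it. Members and lists were chosen with earlier results of these data known. Named list genes were those past 1.5-fold in both lines, those with a limma adjusted p under 0.05, and the highest and lowest mean of each list. For neighbours and likeness the 3 nearest genes per side and the 5 nearest patterns were taken. Python 3.11.15 with matplotlib 3.10.9 drew the figures.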

Additional observations from a re-analysis of the deposited data

Results flagged for a closer look

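Opposite directions after siTTF-1 in the lines occurred for some of the values above, and with 1 array per group the difference between lines was not tested for any of them. Among the members these were the 3 probe sets of MAP7D3. Lu139 minus NCI-H209, the difference of the siTTF-1 effects was 0.85 on 219576_at, 0.24 on 219626_at and 0.084 on 237842_at, all at intensities of 62.3 or less. For the kinesin light chain gene KLC2 it was 0.036. Of the neighbours of MAP7D2 it was 0.66 for EIF1AX, 0.19 for PDHA1 and -0.26 for RPS6KA3.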

How the results depend on the processing

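MAP7D2 was the 1 member probe set past 1.5-fold in both lines under each pseudocount and scaling tried. This follows from its choice as at least 2-fold lower in both lines and is no separate support. Its log2 differences were from -2.11 to -1.92 in NCI-H209 and from -1.14 to -1.07 in Lu139. Over all probe sets above the limit, from 98 to 167 passed 1.5-fold in both lines under these settings. Its line difference was not stable: -0.016 with control arrays only, 0.89 (limma adjusted p = 0.0028) with quantile normalization over the 4 arrays. For MAP7 202890_at the line difference was -2.84 with control arrays only and -2.44 with control arrays under that quantile normalization, an alternative chosen after seeing the data. Among list genes, limma called 2 with quantile normalization over the 4 arrays, 1 within each line and 1 with the expression limit at the 60th percentile, against 0. Calls rose over all genes too, to 49 lower and 17 higher over the 4 arrays and 33 and 8 within each line, against 0 and 0. The list calls are therefore not particular to microtubule genes. With probe sets averaged per gene, 1 list gene rather than 2 was 1.5-fold lower in both lines. KLC2 turned from -0.016 to 0.024 (limma adjusted p = 0.92) under both quantile normalizations. At 2-fold, 7 probe sets passed in both lines, against 129 at 1.5-fold. The cause of these shifts was not tested. The line term paired the 2 arrays of each line, and without it (no replicate block) limma gave 0 calls among list genes. Signal near background limits MAP7D3.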
